A study of Rattus norvegicus with 25 samples.

Results

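A list of 10 mitochondrially encoded respiratory chain genes was followed in the rat hippocampus after the forced swim test (FST). In this assay a rat is placed in a cylinder of water it cannot leave. The list does not hold every such gene, so sums over the 10 leave some out. The rule is a list of 10 Ensembl identifiers and uses no measured value, though the list was drawn up with earlier results of these data known, and all 10 were found among the 32623 genes of the files. They are Nd1 (ENSRNOG00000030644), Nd2 (ENSRNOG00000031033), Nd3 (ENSRNOG00000033615), Nd4 (ENSRNOG00000029707), Nd5 (ENSRNOG00000029971), Cyb (ENSRNOG00000031766), Co1 (ENSRNOG00000034234), Co2 (ENSRNOG00000030371), Co3 (ENSRNOG00000030700) and Atp6 (ENSRNOG00000031979). The files hold identifiers without symbols, and the symbols come from the member list.

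Poly-A RNA was sequenced from 19 male Sprague Dawley rats, all separate animals. The 20-m group (7 rats) was decapitated 20 min after the FST, the 24-h group (6 rats) was decapitated 24 h after it, and the control group (6 rats) was not subjected to the test. The rats of both FST groups had also been placed in water on the day before the test. Age is not given in the sources used here, and the rats carried no genetic modification that the sources mention. The labels assign the 25 libraries to 5 batches. Batch 2 held rats 5, 7 and 12 of the 20-m group, rats 14, 15 and 17 of the 24-h group and control rat 25. Batches 3 to 5 held 3 sequencing runs each of rat 10 of the 20-m group and of control rats 21 and 27 but nothing from the 24-h group. Counts of a rat were summed over its runs, and its TPM values were averaged over them without weights. Batch 1 held rats 1, 2 and 6 of the 20-m group, rats 13, 18 and 19 of the 24-h group and control rats 22, 24 and 28.

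Mitochondria keep a small circular genome that encodes a few core subunits of the respiratory chain, while most subunits are encoded in the nucleus. The chain passes electrons from NADH to oxygen and pumps protons across the inner membrane, and ATP synthase uses the returning protons to make ATP. The mitochondrial genes are transcribed as long polycistronic RNAs that are cut into single mRNAs, most of which receive a poly(A) tail. Neurons depend strongly on oxidative phosphorylation, and brain tissue is rich in these mRNAs. Nd1 to Nd5 encode subunits of complex I, which takes electrons from NADH. Cyb encodes cytochrome b of complex III, Co1, Co2 and Co3 encode the core of cytochrome c oxidase (complex IV), and Atp6 encodes a subunit of the proton channel of ATP synthase.

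The lengths in the files were 955 bases for Nd1, 1039 for Nd2, 348 for Nd3, 1378 for Nd4, 1830 for Nd5, 1143 for Cyb, 1545 for Co1, 684 for Co2, 784 for Co3 and 681 for Atp6. The lengths of 6 genes were multiples of 3, and those of Nd1, Nd2, Nd4 and Co3 were 1 base over one. In mammalian mitochondria some reading frames end in an incomplete stop codon that is completed by the poly(A) tail. Of the 250 counts that these genes had over the 25 libraries, 1 was not a whole number at a tolerance of 0.005. RSEM divides a read between genes or near-identical copies that it fits, and nuclear copies of mitochondrial sequence exist. The reading frames of Atp6 and Nd4 overlap those of their neighbours on the mitochondrial genome, and the sources do not state whether counting used the strand. A divided read usually leaves a count that is not whole, which was seen in 1 of the 250 counts. How reads within the overlaps were assigned was not tested. Whole counts do not give the strand of a read, so transcripts from the opposite strand cannot be told apart with certainty.

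The 10 genes took a large part of each library. Their summed share of all expected counts was 9.75% ± 1.00 over the rats (SD, n = 19), between 8.21% and 11.3%. Total counts per rat were 6217600 to 9032924, so the 95% Wilson interval of a share reached at most 0.0241 percentage points to either side, for counting error only. The gene with the fewest reads, Nd3, had at least 3879 counts in every rat. Rank by mean TPM, which is scaled for length, placed Co1 at 4 and Atp6 at 5 of all genes, and the least abundant of the 10, Nd3, at 39. All 10 genes passed the filter on low counts, which kept 13908 genes.

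On the length-scaled TPM the 10 genes spanned 5.49-fold in mean level. The mRNAs of complex IV and ATP synthase stood at the top. Co1 averaged 25011 ± 2838 TPM, and Atp6 averaged 23803 ± 3004 TPM (SD, n = 19). Co3 averaged 18534 ± 2587 TPM, and Co2 averaged 16799 ± 3006 TPM. Co1 was above Atp6 in 17 of 19 rats, and each step from Atp6 to Co3, to Co2 and to Cyb held in 19 of 19 rats.

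Below them came a group of 4 genes with close means. Cyb averaged 10439 ± 1222 TPM, Nd1 10324 ± 1312 TPM, Nd4 9837 ± 1294 TPM and Nd2 9714 ± 1148 TPM. The place of Nd4 among them went with the batch. Nd4 averaged 9593 ± 605 TPM in Batch 2 (SD, n = 7) and 8106 ± 417 TPM in Batches 3 to 5 (n = 3), against 10605 ± 1270 TPM in Batch 1 (n = 9). It was below Cyb, Nd1 and Nd2 in every rat of Batch 2 and of Batches 3 to 5 and above all of them in every rat of Batch 1. Cyb and Nd1 were not separated, with Cyb the higher in 9 of 19 rats. Nd2 was 2.06-fold above Nd5 in mean TPM and above it in 19 of 19 rats. Nd5 averaged 4708 ± 857 TPM and Nd3 4557 ± 1965 TPM, and Nd5 was the higher in 9 of 19 rats, all of them in Batch 1. The complex I mRNAs of the list thus covered a wide range of levels, although their proteins enter the complex in equal numbers. Nd3 was the most variable of the genes, with a coefficient of variation of 43.1% in TPM.

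The first comparison asked how the genes stood 20 min after the FST. The share taken by the 10 genes averaged 9.09% ± 0.941 in the 20-m rats (SD, n = 7), 10.2% ± 1.07 in the 24-h rats (SD, n = 6) and 10.1% ± 0.648 in the control rats (SD, n = 6). The 20-m group ran from 8.21% over a median of 8.95% to 10.96%, the 24-h group from 8.79% over 10.4% to 11.3%, and the control group from 9.08% over 10.2% to 10.86%. The groups overlapped. In the 20-m group 5 of 7 rats were below every control rat, and rat 12 was above every control rat. A share that is lower in bulk tissue cannot be divided into fewer cells of a type and less RNA per cell.

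**Figure D1:**
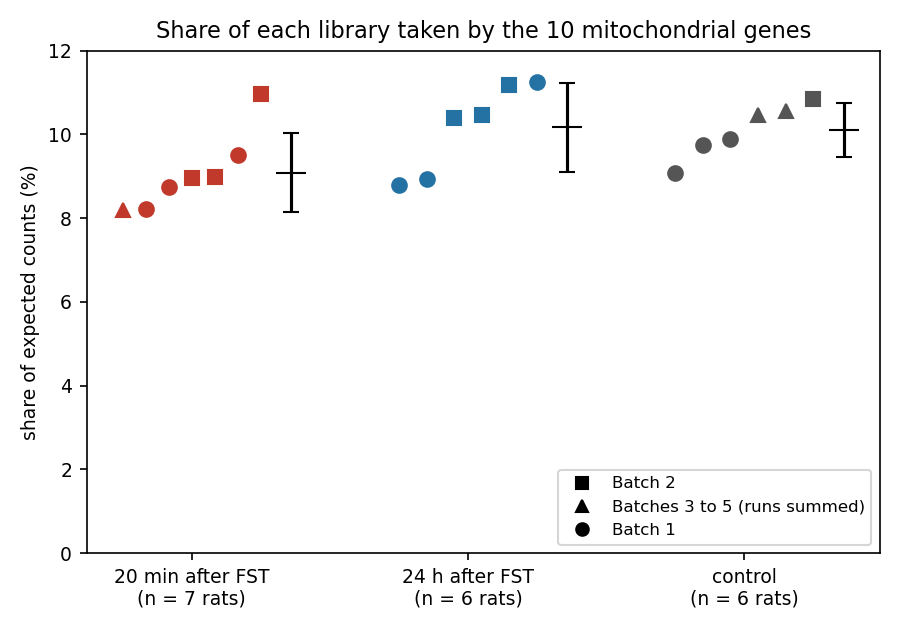
Share of all expected counts taken by the 10 mitochondrial genes, in percent (y axis), for each rat of the 20-m group (7 rats), the 24-h group (6 rats) and the control group (6 rats). Each point is a rat, its shape gives the batch, and the bar beside each group is the mean with 1 SD. The 20-m rats lie between 8.21% and 10.96% with 5 of 7 below all controls, while the 24-h and control rats cover much the same range.

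Within batches the share of the 20-m group was lower too. In Batch 2, rats 5, 7 and 12 of the 20-m group had 8.95%, 8.996% and 10.96%, against 10.86% in control rat 25, a difference in means of -1.22 percentage points. In Batches 3 to 5, rat 10 of the 20-m group had 8.21%, against 10.46% and 10.55% in control rats 21 and 27, a difference of -2.30 points. In Batch 1, rats 1, 2 and 6 of the 20-m group had 9.50%, 8.76% and 8.23%, against 9.75%, 9.90% and 9.08% in control rats 22, 24 and 28, a difference of -0.751 points. The means differed in the same direction in every batch, with 1 control rat in Batch 2 and 1 FST rat in Batches 3 to 5.

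No gene of the 10 passed the adjusted threshold at 20 min. All 10 fitted log2 fold changes of the 20-m group against the control group were negative, with a median of -0.17 (a fold of 0.888), while the median over all 13908 genes tested was 0.00 and 50.4% of them were negative. In edgeR's quasi-likelihood test with group and batch as terms, 0 of the 10 genes were lower at a Benjamini-Hochberg adjusted p under 0.05, against 0% of all genes, and their adjusted p ran from 0.508 to 0.821. At an unadjusted p under 0.05, 2 of the 10 were lower, against 3.64% of all genes. The count at an unadjusted p under 0.05 depended on the setting, from 0 of 10 in Batch 1 only, against 1.39% of all genes, to 9 of 10 with log2(TPM + 1) in limma, against 5.4% of all genes, with 66.1% of all genes negative on that scale. DESeq2 and limma with voom also called 0 of the 10 lower at an adjusted p under 0.05, against 0.0648% and 0% of all genes. The 10 fold changes are not independent of each other, as the genes varied together from rat to rat.

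Atp6 had the lowest fold change at 20 min. Its CPM (counts scaled to a common library size with TMM factors) ran from 8904 over a median of 10313 to 12600 in the 20-m group, against 10007 over 11909 to 13790 in the control group. The groups overlapped, with 3 of 7 rats of the 20-m group below every control rat. The log2 fold change was -0.27 ± 0.0865 (SE), with a 95% interval of -0.45 to -0.09, an unadjusted p of 0.00573 and an adjusted p of 0.508 in edgeR.

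Among the complex I genes Nd1 had the lowest value. Nd1 had 5466 to 8272 CPM (median 6353) in the 20-m group, against 6047 to 8867 CPM (median 7011) in the control group, a log2 fold change of -0.21 ± 0.0932 with an unadjusted p of 0.039 and an adjusted p of 0.651 in edgeR. The fold changes of Nd2, Nd3, Nd4 and Nd5 were -0.17, -0.16, -0.12 and -0.14. No rat of the 20-m group was below every control rat in Nd4 or Nd5.

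The complex III and IV genes lay between these values. Co1 had 22784 to 33466 CPM (median 25090) in the 20-m group, against 25113 to 32882 CPM (median 29548) in the control group. It had the most rats of the 20-m group below every control rat, 4 of 7, with rat 12 above them all. The log2 fold changes were -0.19 for Co1, -0.20 for Co2, -0.16 for Co3 and -0.18 for Cyb. Of the 10 genes, 9 had a lower mean log2 CPM in the 20-m group in 3 of 3 batches. Nd5 had one in 2 of 3, with a difference of 0.08 in Batches 3 to 5. The share of all genes lower in 3 of 3 batches was not counted. Batch 2 had 1 control rat and Batches 3 to 5 had 1 rat of the 20-m group. The genes also varied together, so these are not 10 independent results.

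**Figure D2:**
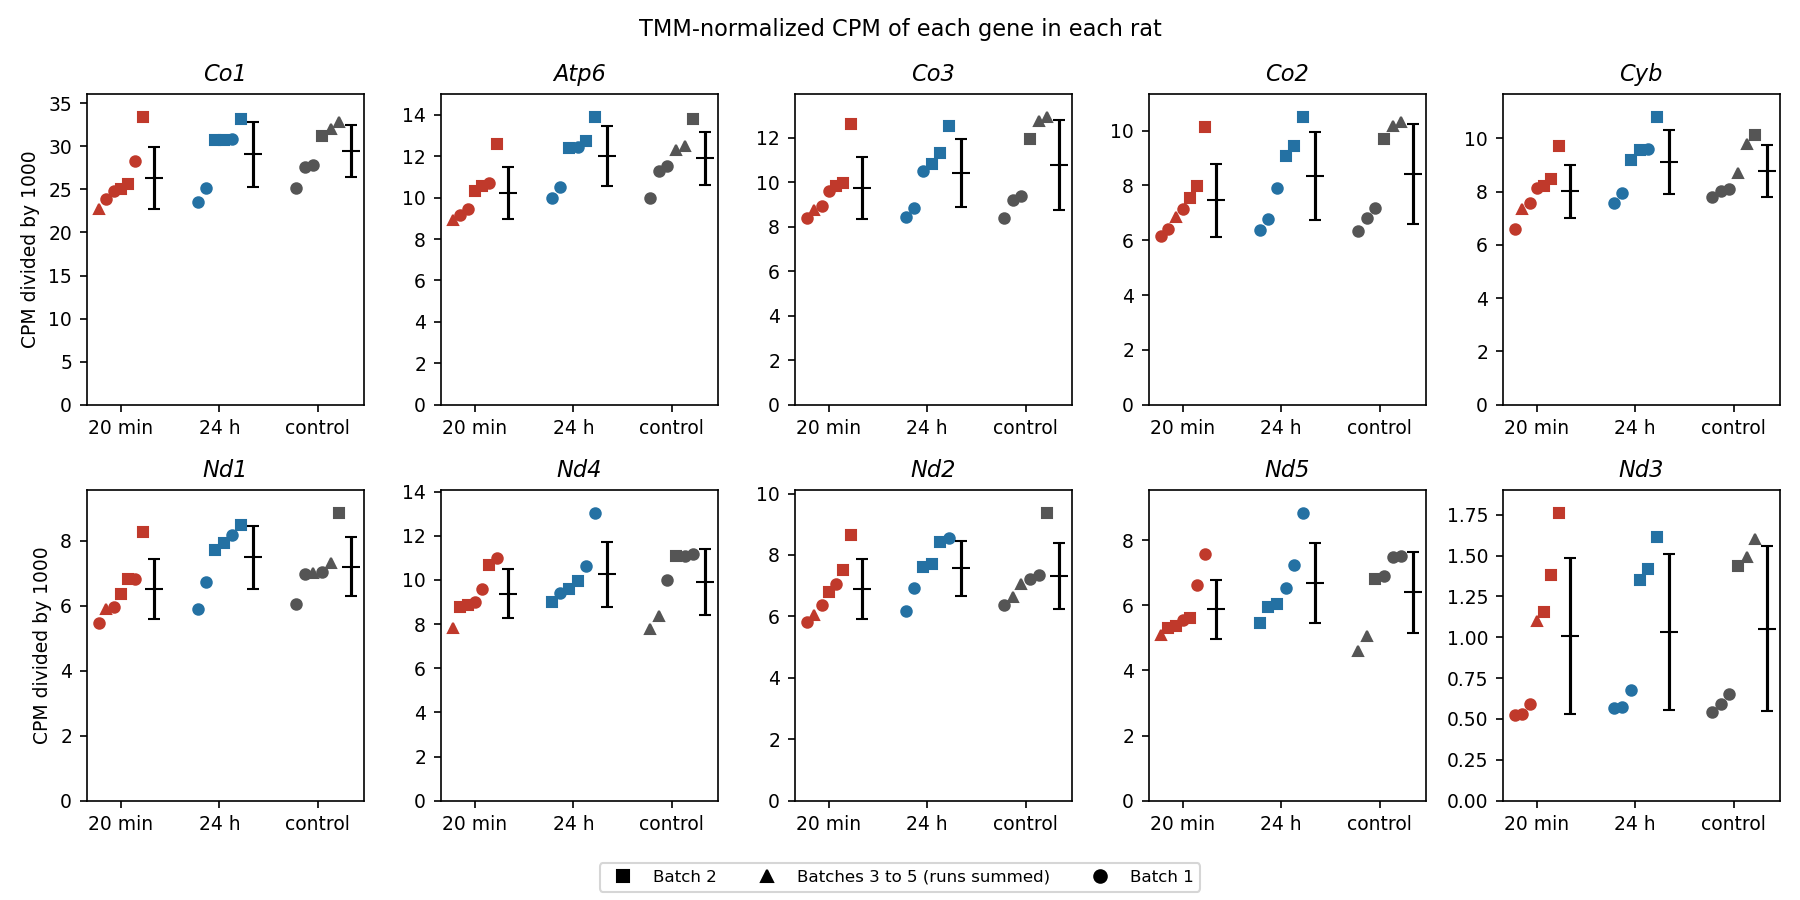
TMM-normalized CPM divided by 1000 (y axis, linear, from 0) of each of the 10 genes, ordered by mean TPM, for each rat of the 20-m, 24-h and control groups. Point shape gives the batch and the bar is the group mean with 1 SD. The groups overlap for every gene, and for Nd3 the Batch 1 rats (526 to 679 CPM) lie below all others in each group.

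The size of the difference depended on single rats. Rat 12 had the highest share of the 20-m group, and without it the median log2 fold change over the 10 genes at 20 min was -0.21, with 8 of 10 lower at an unadjusted p under 0.05, against 4.63% of all genes, and a lowest adjusted p of 0.266. Rat 10 had the lowest share, and without it the median was -0.13, with 1 of 10 lower at an unadjusted p under 0.05, against 2% of all genes. The adjusted p of all 10 genes stayed above 0.05 whichever rat was left out.

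The second comparison asked whether a difference was seen after 24 h. The log2 fold changes of the 24-h group against the control group were close to 0, with a median of -0.04 and a range of -0.05 to 0.01, against a median of 0.00 over all genes. In edgeR 0 of the 10 genes passed the adjusted threshold in either direction, against 0% of all genes, and 0 of 10 had an unadjusted p under 0.05, against 3.17% of all genes. DESeq2 and limma with voom called 0 of the 10, against 0% of all genes in each. The 95% intervals of all 10 genes together lay within -0.28 to 0.20 on the log2 scale. Changes at 24 h beyond these bounds were therefore outside the interval of every gene. Differences inside the interval of a gene are not excluded, and the smallest difference detectable with these rats was not computed.

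Values at 24 h overlapped with those of the control group. Atp6 had 10007 to 13920 CPM (median 12430) in the 24-h group, against 10007 to 13790 CPM (median 11909) in the control group. Co1 had 23586 to 33238 CPM (median 30752) in the 24-h group, against 25113 to 32882 CPM (median 29548) in the control group. Within Batch 1 the 24-h group held both the highest share of all rats, 11.3% in rat 13, and the lower shares of 8.79% in rat 18 and 8.94% in rat 19. The mean share of the 24-h group differed from that of the control group by -0.175 points in Batch 2 and by 0.0818 points in Batch 1.

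The 24-h and 20-m groups were also set against each other, since both had gone through the FST and were balanced over Batches 1 and 2. All 10 log2 fold changes of the 24-h group against the 20-m group were positive, between 0.08 for Nd4 and 0.22 for Atp6, with a median of 0.13, against 0.00 over all genes. In edgeR 0 of the 10 were higher at an adjusted p under 0.05, against 0% of all genes, and 2 of 10 were higher at an unadjusted p under 0.05, against 6.64% of all genes. DESeq2 and limma with voom called 0 of the 10 higher, against 0.252% and 0% of all genes. In edgeR Cyb had a log2 fold change of 0.18 ± 0.0826 with an unadjusted p of 0.0392 and an adjusted p of 0.338. Atp6 had 0.22 ± 0.0836 with 0.0171 and 0.271. The mean share of the 24-h group was above that of the 20-m group by 1.05 points in Batch 2 and by 0.832 points in Batch 1. The 3 comparisons share their groups, so they are not independent of each other.

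**Figure D3:**
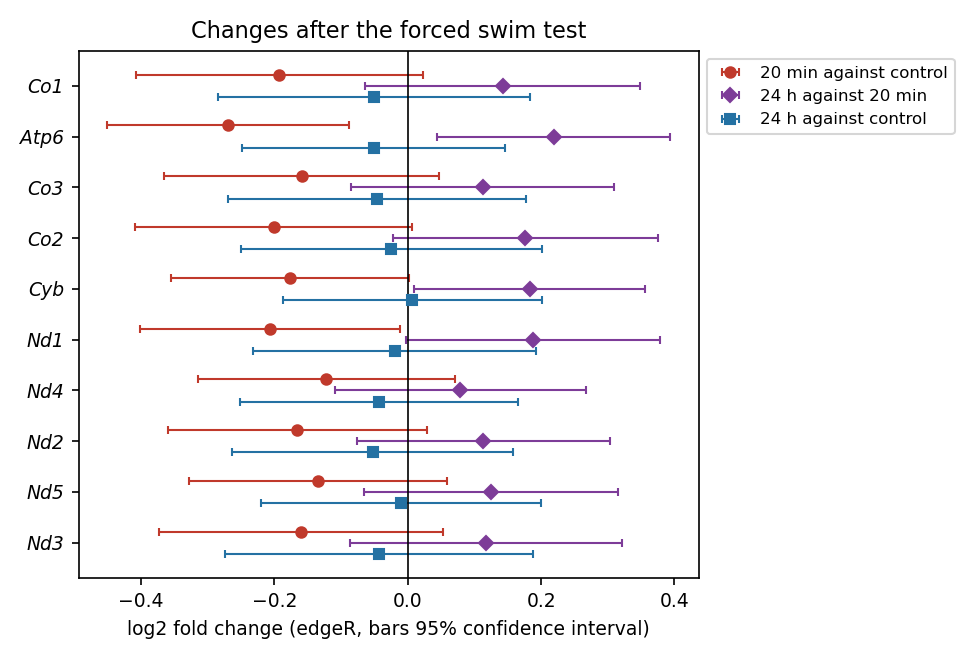
Log2 fold changes from edgeR (x axis, with 95% confidence intervals) of the 10 genes (y axis, ordered by mean TPM) for the 20-m group against the control group, the 24-h group against the 20-m group and the 24-h group against the control group. The first are all negative (-0.27 to -0.12), the second all positive (0.08 to 0.22) and the third near 0 (-0.05 to 0.01), and no gene passed the adjusted threshold in any of them.

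Unlike the comparisons of groups, those of batches had calls, and they did not run the same way in all 10 genes. The batch difference was not the larger in every gene. Atp6 had a log2 fold change of 0.25 in Batch 2 and 0.06 in Batches 3 to 5 against Batch 1, and -0.27 at 20 min against control. In Batch 2 against Batch 1, 7 genes were called higher at an adjusted p under 0.05, against 10.2% of all genes, and 1 was called lower, against 7.46% of all genes. In Batches 3 to 5 against Batch 1, 2 genes were called higher, against 5.96% of all genes, and 2 were called lower, against 4.16%. The fit for these comparisons is the same as above, with group as a term.

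Nd3 differed most between batches. It had 1156 to 1764 CPM (median 1421) in the 7 rats of Batch 2 and 1100, 1493 and 1604 CPM in rats 10, 21 and 27 of Batches 3 to 5, against 526 to 679 CPM (median 572) in the 9 rats of Batch 1. Neither overlapped with Batch 1. The log2 fold change was 1.33 ± 0.0889 in Batch 2 against Batch 1 (a fold of 2.52, adjusted p = 9.67e-09 in edgeR) and 1.24 ± 0.117 in Batches 3 to 5 against Batch 1 (a fold of 2.36, adjusted p = 2.00e-06).

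Nd5 and Nd4, which encode larger subunits of the same complex, went the other way. Nd5 had 5306 to 6827 CPM (median 5612) in Batch 2 and 4611 to 5089 CPM in Batches 3 to 5, against 5552 to 8854 CPM (median 7247) in Batch 1. The Batches 3 to 5 rats were below every rat of Batch 1, and the Batch 2 rats overlapped with them. Its log2 fold change was -0.29 ± 0.0827 in Batch 2 (adjusted p = 0.0211) and -0.54 ± 0.115 in Batches 3 to 5 (adjusted p = 0.00538), each against Batch 1 in edgeR. Nd4 had -0.41 in Batches 3 to 5 (adjusted p = 0.0252) and -0.10 in Batch 2 (adjusted p = 0.42), where it was not called.

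The ratio of Nd3 to Nd5 in TPM does not depend on how libraries are scaled to each other. It was 1.25 to 1.87 in Batch 2 (median 1.53) and 1.29 to 2.08 in Batches 3 to 5, against 0.456 to 0.563 in Batch 1 (median 0.469). Nd3 was thus above Nd5 in all 10 rats outside Batch 1 and below it in all 9 rats of Batch 1. Within Batch 1 the ratio averaged 0.502 ± 0.0533 in the 20-m rats, 0.480 ± 0.0302 in the 24-h rats and 0.483 ± 0.0279 in the control group (SD, n = 3 each). The groups overlapped there.

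The remaining genes had smaller batch differences. Co2 had a log2 fold change of 0.46 in Batch 2 (adjusted p = 0.000975) and of 0.40 in Batches 3 to 5 (adjusted p = 0.0346) against Batch 1 in edgeR. In Batch 2, Co3, Cyb, Nd1, Atp6 and Nd2 were called higher than in Batch 1 with 0.33, 0.27, 0.26, 0.25 and 0.24, and Co1 had 0.21 with an adjusted p of 0.124. Several of these calls changed when a single rat was left out, for Nd2 also with rats of neither batch. Nd2 (adjusted p = 0.0487) lost its call without any 1 of 16 of the 19 rats (adjusted p up to 0.151). Nd1 lost its call without rat 2, 6, 15, 18, 19 or 25 (adjusted p 0.0525 to 0.096), Atp6 without rat 15, 18, 19 or 25 (0.0557 to 0.0673) and Nd5 without rat 14 (0.0511). In Batches 3 to 5, Nd4 lost its call without rat 10, 21 or 27 (0.0735 to 0.12) and Co2 without rat 21, 22, 24, 25, 27 or 28 (0.0519 to 0.166), while Co3 gained one without rat 10 or 12 (0.0242 to 0.0405). Whichever rat was left out, the calls of Nd3 held, as did those of Co2, Co3 and Cyb in Batch 2 and of Nd5 in Batches 3 to 5. Scaling also mattered for the whole table. Of all genes called in Batch 2 against Batch 1, 57.7% were higher with TMM, and 37.5% were higher with scaling by library size alone.

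The log2 fold changes of the 10 genes between batches tended to be lower for longer transcripts, though not in every gene. Co1 (1545 bases) had 0.21 in Batch 2 and 0.12 in Batches 3 to 5 against Batch 1. The shorter Nd4 (1378 bases) had -0.10 and -0.41. Across the 10 genes Spearman's rho between length and log2 fold change was -0.818 in Batch 2 and -0.661 in Batches 3 to 5 against Batch 1, as a description over 10 genes of the same libraries. Over the other 13898 genes tested the rho was -0.389 and -0.373. In Batch 2 the median log2 fold change of the other genes was 0.46 for the 447 genes under 500 bases, 0.24 for 1175 genes of 500 to 1000 bases, 0.04 for 4312 genes of 1000 to 2000 bases, -0.06 for 5470 genes of 2000 to 4000 bases and -0.13 for 2494 genes over 4000 bases. Nd3, with 1.33, was above the upper quartile of its length class, which was 0.987. Nd5, with -0.29, was below the lower quartile of its class, which was -0.11. At 20 min against control the rho was 0.418 over the 10 genes and -0.04 over the other genes. Fragment sizes and other steps of library preparation that may go with a batch were not tested.

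**Figure D4:**
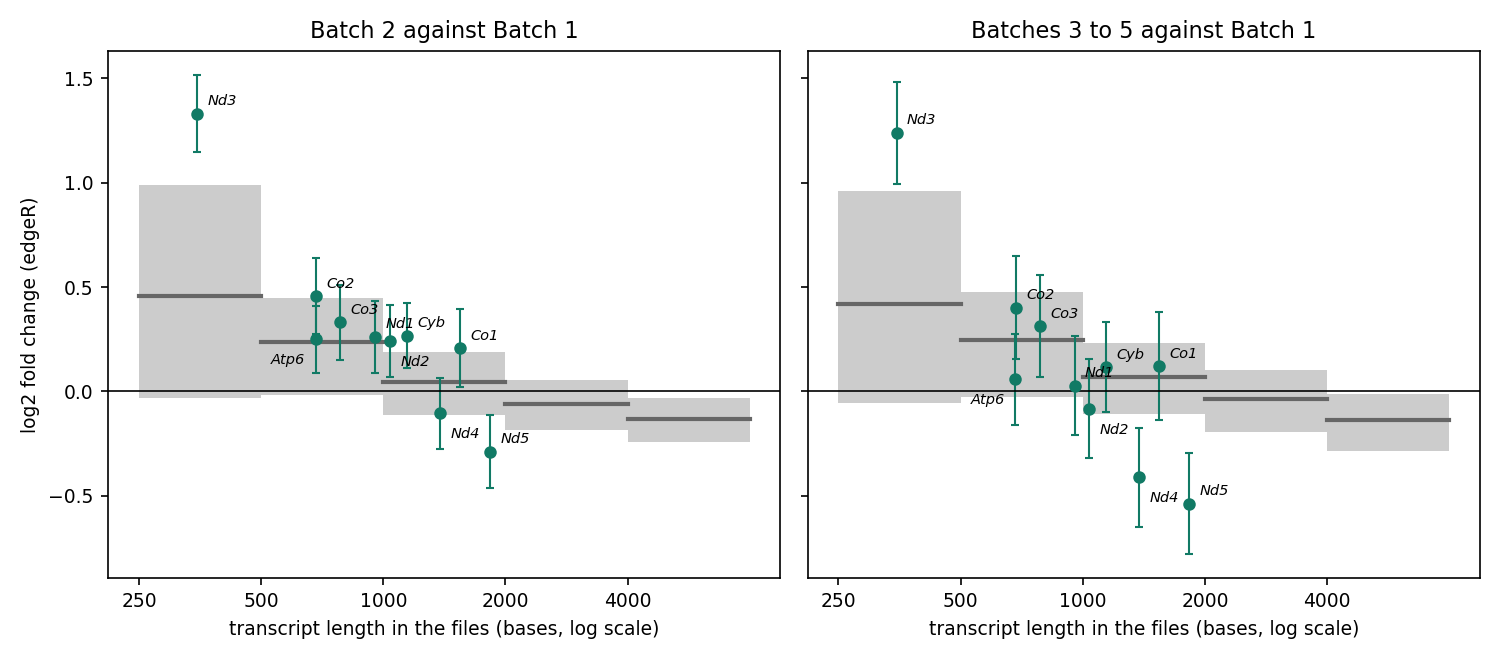
Log2 fold change from edgeR (y axis) against transcript length in bases (x axis, log scale) for Batch 2 (left) and Batches 3 to 5 (right), each against Batch 1. Points are the 10 genes with 95% confidence intervals, grey lines and boxes are the median and the quartiles of all other genes per length class (the lowest and highest classes are open-ended and drawn to fixed edges). Nd3 lies at 1.33 and 1.24, and Nd5 at -0.29 and -0.54.

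The makeup of the 10 genes also differed by batch. Nd3 made up 1.26% to 1.55% of their summed counts in Batch 2 and 1.37% to 1.53% in Batches 3 to 5, against 0.610% to 0.668% in Batch 1. Nd4 made up 8.60% to 9.75% in Batch 2 and 7.43% to 9.70% in Batches 3 to 5, against 11.1% to 11.8% in Batch 1. Neither overlapped with Batch 1. Atp6 was the steadiest of the genes in relative terms, at 11.6% ± 0.371 of the sum over all rats (SD, n = 19). By group Atp6 made up 11.2% ± 0.248 in the 20-m rats (n = 7), 11.8% ± 0.336 in the 24-h rats (n = 6) and 11.7% ± 0.207 in the control rats (n = 6).

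The runs of a rat gave nearly the same share. Rat 10 of the 20-m group had 8.13% to 8.35% over its 3 runs, and control rats 21 and 27 had 10.3% to 10.6% and 10.4% to 10.7%. The range over the runs of a rat was 0.222, 0.284 and 0.294 percentage points, against a range of 8.21% to 11.3% between rats. In all 3 rats the share was highest in Batch 3 and lowest in Batch 5. The Wilson intervals of the Batch 3 and Batch 5 runs did not overlap in any of the 3 rats.

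From rat to rat the 10 genes mostly varied together. Pearson's r of log2 CPM over the 19 rats, given as a description since the genes share libraries, had a median of 0.725 over the 45 pairs and was positive in 37. The lowest was -0.66 between Nd3 and Nd5, and the highest was 0.984 between Co2 and Co3. After group and batch were removed all 45 pairs were positive, between 0.232 and 0.984, with a median of 0.824. The pair of Nd3 and Nd5 was again the lowest. Co1, Co2, Co3 and Atp6 held together most closely, with r of 0.94 to 0.98, and Nd2 and Nd4 had 0.95.

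**Figure D5:**
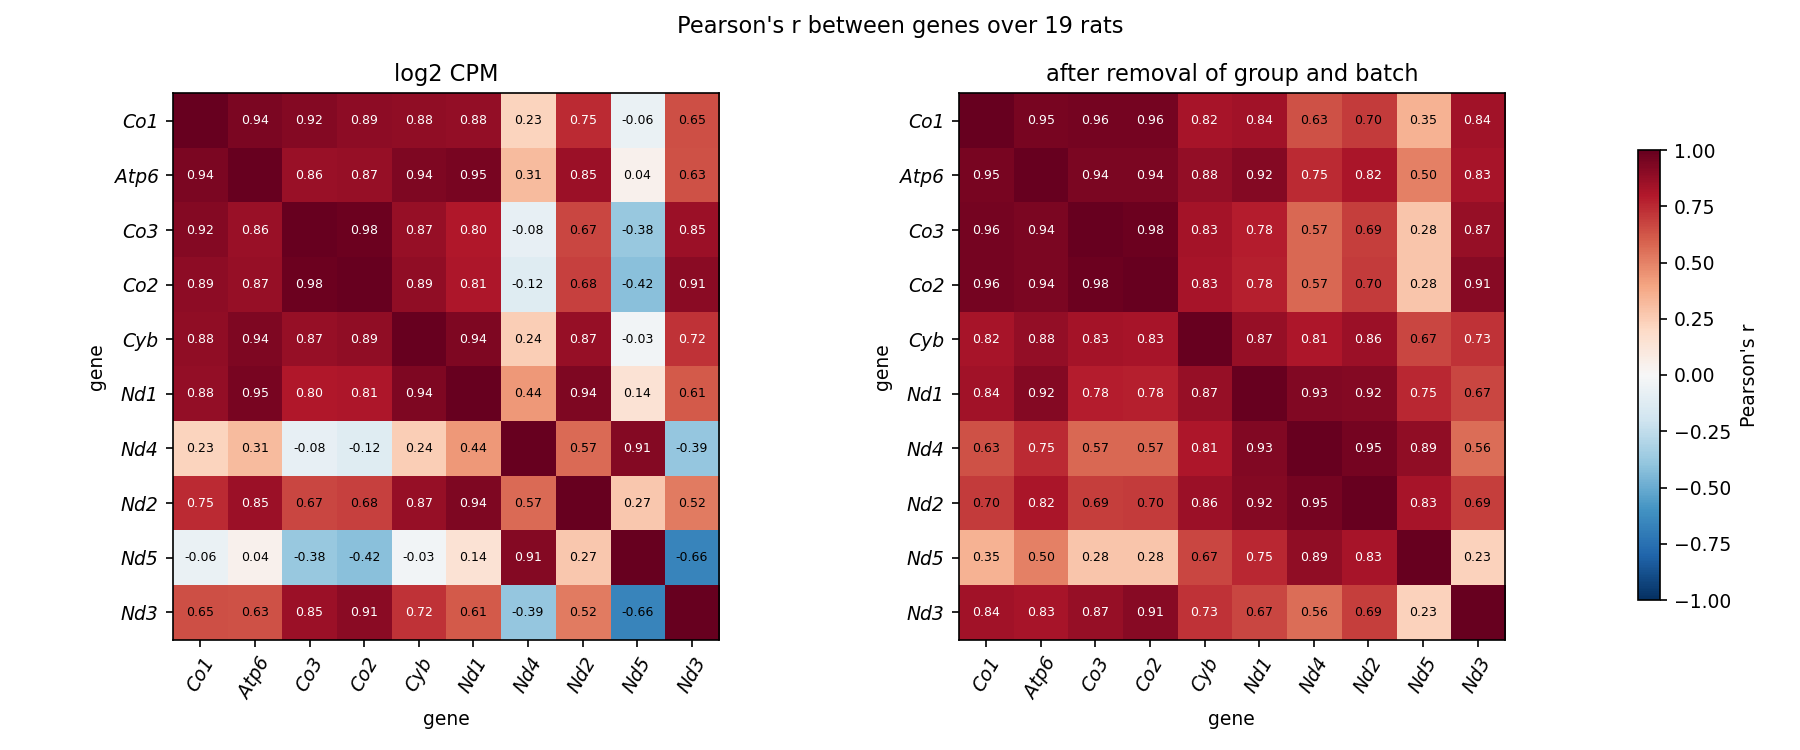
Pearson's r between each pair of the 10 genes over 19 rats, on log2 CPM (left) and after group and batch were removed (right), with genes ordered by mean TPM on both axes and colour running from -1 (blue) to 1 (red). On the left Nd5 and Nd4 stand apart from Nd3, with -0.66 and -0.39. On the right all 45 pairs are positive.

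Other genes were ranked by the likeness of their log2 CPM to the mean of the 10 over the 19 rats, among 9393 genes with a mean of at least 10 CPM. ENSRNOG00000033299 (204 bases) was the closest, with r = 0.886. It was followed by ENSRNOG00000029145 with 0.835, ENSRNOG00000030478 with 0.834, ENSRNOG00000023086 with 0.824 and ENSRNOG00000006283 with 0.812. After group and batch were removed the closest were ENSRNOG00000021157 with 0.878, ENSRNOG00000036816 with 0.840, ENSRNOG00000013190 with 0.838, ENSRNOG00000024127 with 0.828 and ENSRNOG00000012062 with 0.824. No identifier was among the closest 5 on both scales. The sources used here pair none of these identifiers with a gene name. Whether some of them are mitochondrial genes left off the list was therefore not checked.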

How the data were processed

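Gene tables of 25 hippocampal libraries were used. Per the paper's methods, reads were trimmed by AdapterRemoval V2 and mapped by STAR inside RSEM, and the authors deposited RSEM expected counts, which are not normalized, and TPM values for the Rnor 6.0 annotation, release 93. For STAR and RSEM the version was not found in the labels or the paper. Groups, rats and batches came from the labels, whose rat numbers differ for some rats from those in the paper's supplementary tables, so values per rat cannot be matched to those tables. Expected counts were rounded to whole numbers after the runs of rats 10, 21 and 27 were summed, and edgeR's filterByExpr (minimum count 10, minimum total 15) kept 13908 genes. Groups were compared by the quasi-likelihood test of edgeR with TMM factors and group and batch (Batches 3 to 5 as 1 level) as terms on 19 rats, with Benjamini-Hochberg adjustment over all genes, 14 residual degrees of freedom and a threshold of 0.05. An SE was obtained as the size of the log2 fold change over the square root of F. CPM values are TMM-scaled, and log2 CPM has a prior count of 2. The test was also run on simulated counts, with genes drawn independently, no batch differences and planted changes larger than those of the 10 genes between groups. That run does not show how the test performs on correlated genes with small changes. Tools were edgeR 4.0.16, DESeq2 1.42.0, sva 3.50.0 and limma 3.58.1 under R 4.3.3, and Python 3.11.15 with numpy 2.4.6, pandas 2.3.3, scipy 1.17.1 and matplotlib 3.10.9. All 10 genes are named, and other genes by their correlation with the mean of the 10. The genes and lists were chosen with earlier results of these data known. Lists of nuclear-encoded respiratory chain genes and of cell type markers, which go by symbol, were not analysed here, so the labelled tissue was not checked against its markers.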

Additional observations from a re-analysis of the deposited data

Results flagged for a closer look

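In 33 sets of 6 or 7 rats of a group, Dixon's test for a single outlying value was applied to the share and to the CPM of each gene, and 2 values passed it. Chance flags about 1 in 20 such sets. Co3 had 12601 CPM in rat 12 of the 20-m group, above the other rats of that group, with a gap to the next rat of 0.624 of the group's range. Nd2 had 9380 CPM in control rat 25, with a gap of 0.673 of the range of the control group. Both rats belong to Batch 2, and rat 25 is the only control rat of that batch. Whether batch plays a part in these values was not tested.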

How the results depend on the processing

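In the comparisons of groups, 0 of the 10 genes passed the adjusted threshold under any of 16 alternatives or with any 1 of the 19 rats left out. Of all genes, at most 0.777% were called higher and at most 0.669% lower in these fits. The median at 20 min against control was -0.22 to -0.12 over the alternatives and -0.21 to -0.13 with a rat left out, and all 10 genes were negative in each. A further fit in limma took the 25 libraries with the 5 batches as terms and the rat as a replicate block. The consensus correlation of the runs of a rat was 0.42, estimated over all genes on what group and batch left unexplained. It is not a correlation of the counts of 2 runs. In that limma fit the median was -0.21 and the lowest adjusted p 0.0716. It had 8 of 10 genes lower at an unadjusted p under 0.05 (4.86% of all genes), and no adjusted call of the 10 changed. The replicate numbers are the rat numbers, shared by the runs of a rat, and pair no rats. Batch calls were less stable. In Batch 2 against Batch 1 the count of 8 became 5 with library size alone (4 higher and 1 lower, against 7.4% and 12.3% of all genes). It became 4 with no filter on low counts (3 higher and 1 lower, against 4.97% and 3.54%). With a rat left out it was 5 to 8, against 8.29% to 14.2% of all genes called higher and 5.15% to 11.4% called lower. In Batches 3 to 5 the count of 4 became 2 with no filter (1 in each direction, against 2.95% and 1.96%), which adds genes to the adjustment. With a rat left out it was 2 to 5, against 3.6% to 9.3% of all genes called higher and 1.51% to 6.55% called lower. By summed TPM the share was 12.2% in 20-m rats, 14.1% in 24-h rats and 14.04% in control rats. The median r was 0.824 after group and batch were removed and 0.739 when scaled without the 10 genes.

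At 24 h against control, signs changed around 0. Nd5 had 0.00282 with library size alone and 0.00722 with ComBat. Without a batch term Nd1, Nd2, Nd4, Nd5 and Atp6 had 0.0564, 0.0469, 0.0502, 0.0624 and 0.0130. In Batches 1 and 2 only, Nd3, Co1, Co2 and Co3 had 0.0152, 0.00453, 0.0406 and 0.0207. In Batch 1 only, Nd1, Nd2, Nd3, Nd4, Nd5, Co2, Co3 and Atp6 had 0.0609, 0.0587, 0.0342, 0.0434, 0.0543, 0.0570, 0.0510 and 0.0147. With only the 2 groups compared, Nd3, Co2 and Co3 had 0.0312, 0.0361 and 0.0182. With the replicate block Nd5 had 0.0042 and Cyb -0.012. With a rat left out, Nd1 ran from -0.093 to 0.033, Nd2 from -0.14 to 0.0048, Nd3 from -0.097 to 0.023, Nd4 from -0.13 to 0.0073, Nd5 from -0.087 to 0.064, Cyb from -0.052 to 0.043, Co1 from -0.11 to 0.012, Co2 from -0.071 to 0.048 and Co3 from -0.099 to 0.028, and Nd1 in Batches 3 to 5 against Batch 1 from -0.013 to 0.067. The cause of these changes was not tested.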
